A study of Mus musculus with 44 samples.

Results

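The junctions described here joined a fixed break on mouse chromosome 2 to positions on other chromosomes that lay inside long genes and far from any site of the cutting enzyme. HTGTS, high-throughput genome-wide translocation sequencing, reads from a primer beside that break, the bait, into the sequence to which the broken end was joined, the prey. Members were the junctions outside chromosome 2 whose nearest AsiSI motif (of 1109 listed) was over 10 kb away, whose nearest annotated transcription start was over 3 kb away, and which fell inside a protein-coding gene spanning 100 kb or more in GENCODE M21 on mm10. There were 5868 such junctions among 24176 that met the distance rules and 148726 deposited. They lay in 1630 of 2289 long genes. A position inside several genes was given to the longest. Every base obeying the same rules is called eligible, and the long genes held 501.9 of 2074 eligible Mb.

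All 32 libraries came from mouse embryonic fibroblasts (MEFs) of strain C57BL/6, labelled WT. In 26 of them the cells carried AsiSI-ER, a restriction enzyme that 4-hydroxytamoxifen (4OHT) brings into the nucleus, and the bait was an AsiSI site, with 3 µg/ml doxycycline for 24 h and 1 µg/ml 4OHT for the last 6 h. These comprised 6 DMSO and 6 CK-666 libraries (100 µM, an ARP2/3 inhibitor), 2 wiskostatin libraries (3 µM, a WASP inhibitor) with 2 controls, 2 libraries with the nuclear actin mutant actin R62D-NLS, which does not polymerise, with 2 of empty vector, and 3 NU7441 libraries (10 µM, a DNA-PKcs inhibitor) with 3 controls. In the other 6 libraries, wild-type MEFs received a Cas9 break at the same place, 3 with DMSO and 3 with CK-666, although their labels also name 4OHT. Each library held between 362 and 18428 junctions, of which 5 to 695 were members. No 2 tables were identical and no read name occurred in more than 1 library. All groups share the bait locus, and the Cas9 libraries differ from the others in both the cells and the nuclease.

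Long genes are of interest in translocation biology because transcription through them takes long enough to meet replication, and many common fragile sites lie in such genes. Most of their length is intron, and introns hold the dispersed and tandem repeats of the genome. Tandem arrays of the telomeric unit inside chromosomes, called interstitial telomeric repeats, are remnants or insertions of telomere sequence away from chromosome ends.

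The share of prey in long genes did not differ from their share of bases beyond the spread between libraries. Long genes held 24.2% of eligible bases and 24.3% of eligible prey over all libraries. Over the 6 DMSO libraries the share was 24.7% ± 4.85 (SD, n = 6), from 19.0% through a median of 24.1% to 30.3%, and density in long genes was 1.02-fold ± 0.200 that of the eligible genome (mean log2 ratio 0.01, exact sign-flip p = 0.844, adjusted p = 0.844 over 3 density comparisons). DMSO replicates 2 and 5 were highest and replicates 3 and 6 lowest. The 95% Wilson interval of a library, which covers counting error only, held the base share in 29 of 32 libraries and missed it in DMSO replicates 3, 5 and 6.

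**Figure D1:**
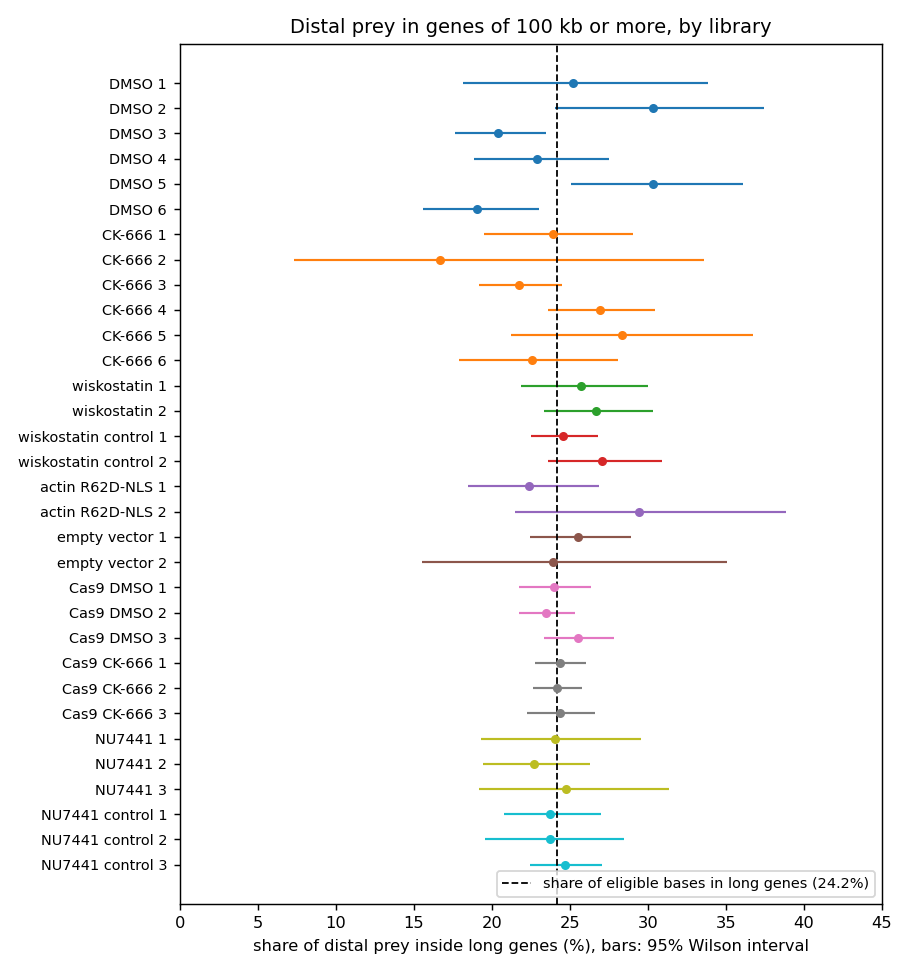
Share of distal prey inside genes of 100 kb or more (x axis, %) in each of the 32 libraries (y axis), points with 95% Wilson intervals and a dashed line at the share of eligible bases, 24.2%. The intervals of 29 libraries cross the line, and CK-666 replicate 2, with 5 of 30 prey, has the widest.

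Pooled density was higher in shorter genes than in long ones. Over all libraries shorter protein-coding genes held 11.3% of eligible bases and 14.4% of prey, a density of 14.8 junctions per Mb against 11.7 in long genes and 11.2 outside all genes. In the DMSO libraries the density in long genes was 0.743-fold ± 0.208 (SD, n = 6) that in shorter genes, from 0.493 through 0.672 to 1.07, and 5 of 6 libraries were below 1. The mean log2 ratio was -0.48 ± 0.39, which the exact sign-flip test did not separate from 0 (p = 0.0625, adjusted p = 0.188), while 6 libraries cannot give a p below 0.0313. The same direction was seen in 22 of 26 AsiSI-bait libraries and 4 of 6 Cas9 libraries. Against bases outside all genes the mean log2 ratio was 0.17 ± 0.38 (SD, n = 6; exact p = 0.281, adjusted p = 0.422).

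Among long genes, those of 500 kb or more had a lower density than the shortest. Genes of 500 kb or more had a lower density than genes of 100 to 200 kb in all 6 DMSO libraries (mean log2 ratio -0.63 ± 0.46, SD, n = 6, exact sign-flip p = 0.0313, the smallest it can give). Among the 26 libraries not in that test, 20 had the same direction. Relative to the eligible genome, the DMSO density was 1.26-fold ± 0.238 in genes of 100 to 200 kb, 1.02 ± 0.367 from 200 to 300 kb, 0.977 ± 0.247 from 300 to 500 kb, 0.902 ± 0.312 from 500 to 1000 kb and 0.752 ± 0.275 above 1000 kb. Adjacent classes overlapped in their spread. Just inside the length limit, genes of 100 to 110 kb had a pooled 0.894-fold density and just outside it, genes of 90 to 100 kb had 1.47. With strict prey alone, a subset defined further on, the mean log2 ratio was -0.60 (exact sign-flip p = 0.125). The exact p was also above the threshold, at 0.0625, with starts within 1 kb, motifs within 100 kb or without genes spanning 5 others.

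**Figure D2:**
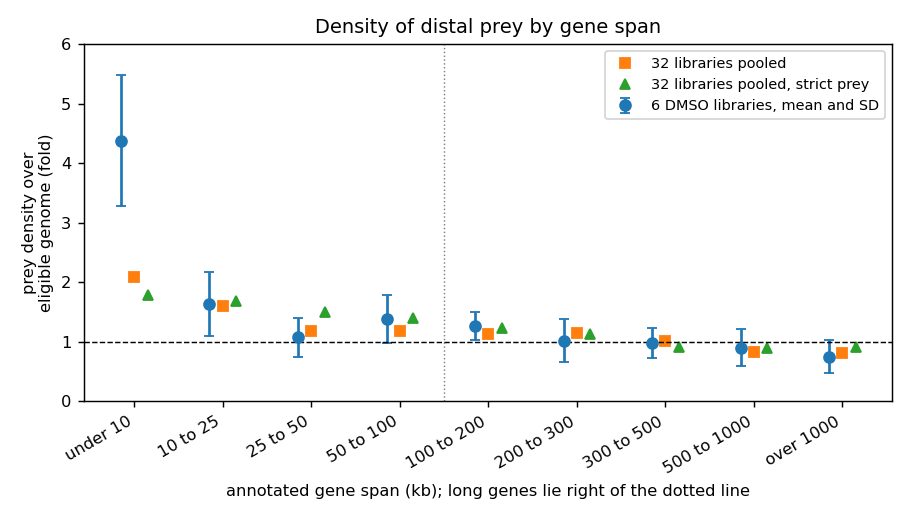
Density of distal prey relative to the eligible genome (y axis, fold) by annotated gene span (x axis, kb), for the 6 DMSO libraries (circles, mean and SD) and for all 32 libraries pooled (squares, all prey; triangles, strict prey). Right of the dotted line, pooled values are 1.13 in genes of 100 to 200 kb and 0.817 above 1000 kb.

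Many prey that recurred between libraries sat on tandem repeats. The densest places included introns of Ppp1r9a (neurabin 1, an actin-binding scaffold), Flt1 (a VEGF receptor) and Col4a6 (a collagen IV chain). Another lay outside exons within the annotated span of Fgfr2 (an FGF receptor). That span is 2961 kb long and holds 29 other protein-coding genes, so the place is not shown to lie in an intron of the receptor transcript. At all of these the reference holds arrays of the telomeric unit (CCCTAA, or TTAGGG on the other strand).

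Of 5868 members, 1062 (18.1%) read at least 3 telomeric units in the aligned prey, against 9.78% of prey in shorter genes and 3258 of 13551 outside genes, although only 83 of 491051 1-kb tiles of long genes (0.0169%) held 3 units in tandem. They lay at 68 loci more than 1 kb apart in 67 genes, and the 10 loci with most held 54.3% of them. The strand followed the array. As the plus-strand reference reads CCCTAA in Ppp1r9a and TTAGGG in Flt1, 99 of 103 junctions in Ppp1r9a were on the plus strand and 52 of 53 in Flt1 on the minus strand, so in both the read away from the bait ran CCCTAA. In all, 1017 of the 1062 prey read CCCTAA and 45 TTAGGG, and 42 of 46 loci with 5 or more junctions had at least 90% on 1 strand. In Ppp1r9a the junctions spread over 428 bp and 68 distinct positions in 13 libraries. In Fgfr2 they were narrower, with 51 junctions in 14 libraries over 50 bp and 35 of them at the position used most.

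Telomeric prey were not spread evenly over libraries. They made up 55.8% of members in Cas9 DMSO replicate 2 (280 junctions), 72.9% in Cas9 CK-666 replicate 2 (507) and 80.8% in NU7441 replicate 2 (105). These 3 libraries stand apart, as the other 29 lay between 0% and 17.6% with a median of 2.61%. The paired control of the third, NU7441 control replicate 2, had 8.43%, while the Cas9 DMSO and CK-666 libraries of replicate 2 were high together. Of the 95 distinct prey in Ppp1r9a, 63 came from the Cas9 libraries of replicate 2 and 15 from NU7441 replicate 2. Without the 3 libraries Ppp1r9a kept 17 distinct prey in 11 libraries and Flt1 kept 6 in 6. The share of prey in long genes was not set apart in them (23.5%, 24.2% and 22.7%).

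A smaller set of recurrent prey shared another sequence. In Mdga2, a neural adhesion gene, 25 of the 41 distinct prey lay within 500 bp in an intron on chromosome 12. Members sharing at least 1 run of 15 bases with that stretch on either strand are called satellite-like here, a working name whose likeness to a known satellite was not tested and which by construction takes in prey aligned there, and there were 97 (1.65%), against 1.29% of prey in shorter genes and 3.63% outside genes. They also fell in Cdk5rap2 (a centrosomal protein), Mamdc2 and 2210408I21Rik. Capitals mark the runs shared with the Mdga2 stretch, which cover 36.7% of the Cdk5rap2 stretch, 37.5% of the Mamdc2 stretch and 33.3% of that in 2210408I21Rik.
Cdk5rap2, chr4:70378105-70378224: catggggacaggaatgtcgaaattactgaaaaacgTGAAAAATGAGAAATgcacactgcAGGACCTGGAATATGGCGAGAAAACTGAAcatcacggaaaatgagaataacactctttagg
Mamdc2, chr19:23357403-23357522: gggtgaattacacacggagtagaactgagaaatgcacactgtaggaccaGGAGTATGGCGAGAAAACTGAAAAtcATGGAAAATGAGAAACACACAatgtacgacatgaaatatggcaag
2210408I21Rik, chr13:77438959-77439078: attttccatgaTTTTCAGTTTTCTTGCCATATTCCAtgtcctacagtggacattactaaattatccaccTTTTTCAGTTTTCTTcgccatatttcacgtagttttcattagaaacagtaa

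Satellite-like prey were highest in other libraries than telomeric ones. NU7441 replicate 1 (20.6% of members), its control (14.3%) and DMSO replicate 4 (9 of 82) had the most, and the 3 telomeric libraries had at most 0.598%. Cdk5rap2 held 43 junctions, 40 of them distinct, in 15 libraries. Of the 43, 42 lay within 120 bp, and unlike at the telomeric arrays both strands were used (15 plus, 27 minus). Of the satellite-like members 50.5% had mismatches over more than 5% of the prey alignment, and 35.9% of the telomeric ones did, against 13.7% of all members and 1.48% of junctions lying at most 500 bp from a motif. A repeat read could come from another copy of its repeat, so for both sets the position named is where the read was aligned by the authors.

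**Figure D3:**
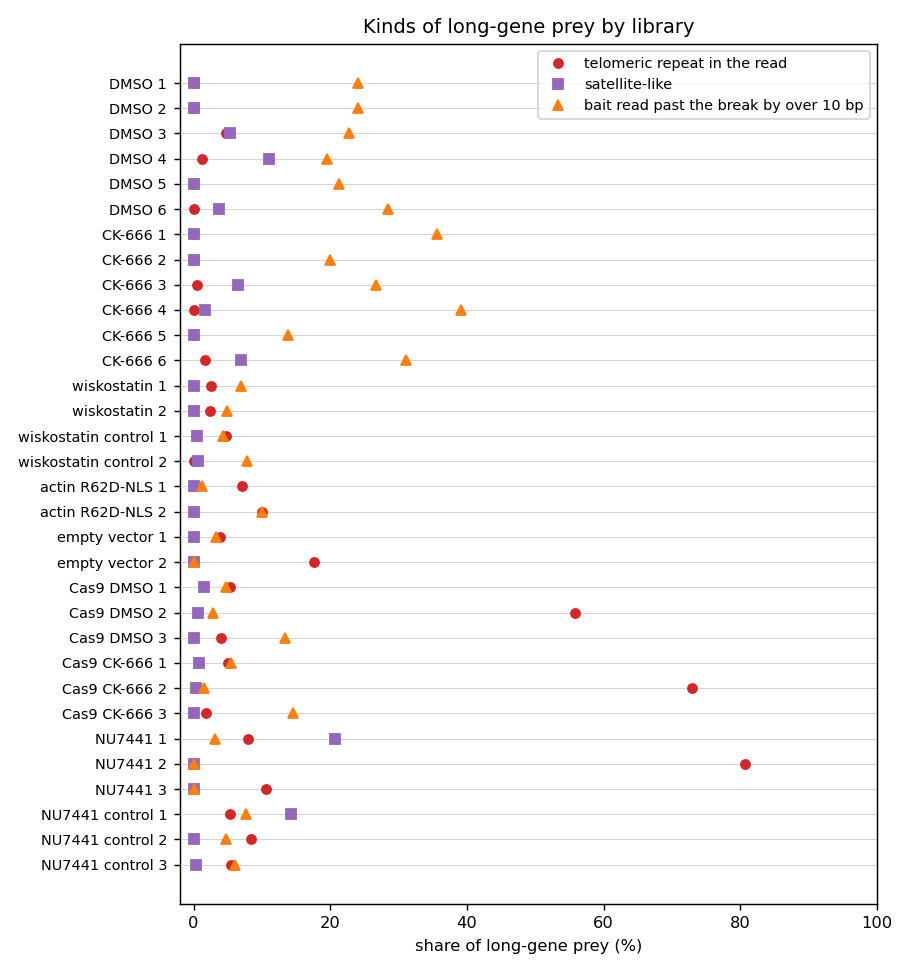
Share of long-gene prey (x axis, %) that read telomeric units (circles), were satellite-like (squares) or had a bait read running more than 10 bp past the break (triangles), for each of the 32 libraries (y axis). Cas9 DMSO 2, Cas9 CK-666 2 and NU7441 2 lie at 55.8%, 72.9% and 80.8% telomeric, and the triangles of the DMSO and CK-666 libraries lie between 13.9% and 39.1%.

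A further trait concerned the bait. In 554 members (9.44%, in 388 genes), as in 10.4% of prey in shorter genes and 7.57% outside genes, the bait read ran more than 10 bp past the break, with a median of 39 bp, before it changed to the prey. In the DMSO libraries this was 23.4% ± 3.03 (SD, n = 6) of members, from 19.5% through 23.4% to 28.4%, against 0.619% ± 0.101 of prey within 500 bp of a motif. The difference was 22.7 ± 3.07 percentage points (exact sign-flip p = 0.0313, the smallest 6 libraries can give), higher in all 6. It was tested after the values were seen. The DMSO and CK-666 libraries, all in 2 sequencing runs of their own, reached 13.9% to 39.1%, and the other 20 libraries at most 14.6%, so the trait moved with the experiment, whose part in it was not tested. Such reads shared sequence at the switch. Of the 554, 66.8% had an overlap of 6 or more nt between bait and prey, against 6.40% of the other members. The clearest case was Mlip, a muscle-enriched lamin-interacting protein, where 8 libraries each had 1 junction at the same base, with the bait read 38 bp past the break and a 10-nt overlap, in capitals.
Mlip, chr9:77284161-77284220: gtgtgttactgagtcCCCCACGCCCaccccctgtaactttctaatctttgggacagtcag

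Members without any of these traits (not telomeric or satellite-like, at most 5% mismatches in bait and prey, and the bait read at most 10 bp past the break) are the strict prey. There were 3812 (65.0%), by library between 6.15% in NU7441 replicate 2 and 89.6% in wiskostatin replicate 2. The rule was chosen after the values were seen. Strict prey fell in long genes at 1.03-fold the density of the eligible genome, in shorter genes at 1.49-fold and outside genes at 0.893-fold. In the DMSO libraries the mean log2 ratio of long to shorter genes became -0.51 (exact p = 0.0313, unadjusted).

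Most of the leading genes owed their rank to repeat prey. Prey were counted as distinct by position and strand, each counted 1 time per library, which gave 5418. The 20 genes with most held 15.4% of these, and after telomeric and satellite-like prey were removed, Gm20388 kept 56, Fgfr2, Pcdh15 and Cntnap2 21 each, 2210408I21Rik 18, and no other of the 20 more than 14. The satellite-like rule took in 27 of 42 junctions at the Cdk5rap2 place and 16 of 33 at the 2210408I21Rik place. The prey these 2 genes kept therefore include some at the same places. Ppp1r9a led with 95 distinct prey in 14 libraries, 92 of them telomeric. Lpp, a focal-adhesion protein, had 63 (49 telomeric), the urea transporter gene Slc14a2 54 (52), Flt1 51 (49), Fgfr2 47 (26), Col4a6 42 (39) and Efna5, an ephrin ligand, 41 (39). Phactr2 had 34 (33), Sez6l 32 (27), the collagen gene Col23a1 32 (29), the phosphatase subunit gene Ppp2r2b 30 (24), Ror2 25 (20) and the phosphodiesterase gene Pde7b 22 (14). The satellite-like group comprised 2210408I21Rik with 42 (16 satellite-like and 8 telomeric), Mdga2 41 (35, by construction), Cdk5rap2 40 (27) and Mamdc2 20 (15).

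**Figure D4:**
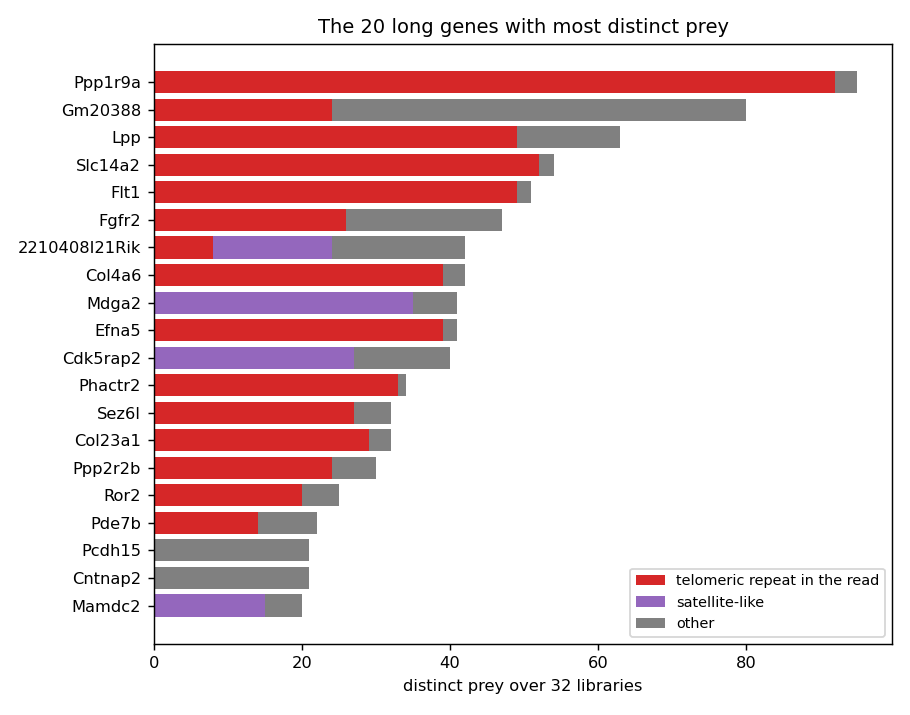
Distinct prey over 32 libraries (x axis) in the 20 long genes with most (y axis), split into telomeric, satellite-like and other. Ppp1r9a reaches 95, of which 92 are telomeric, while the bars of Pcdh15 and Cntnap2, 21 each, hold neither kind.

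By density among genes with 10 or more distinct prey, Ppp1r9a (411 per eligible Mb), Flt1 (356), Cdk5rap2 (247), Sez6l (224) and Lama1 (163), a laminin chain, came first, against a median of 8.02 over all long genes. The genes with most distinct prey in the 6 Cas9 libraries were Ppp1r9a (70), Lpp (49), Flt1 (45), Slc14a2 (43) and Gm20388 (37). In the first 4 of these, 40 to 63 came from the Cas9 libraries of replicate 2. Gm20388 had 80 distinct prey in 21 libraries and 46 strict ones in 18, and 39 distinct prey when all within 100 kb of a motif were left out, but its annotated span of 4435 kb wholly holds 71 other protein-coding genes, and that of Fgfr2 (2961 kb) holds 29, so these counts belong to a region rather than to 1 transcript.

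Apart from telomeric and satellite-like prey, prey were thinly spread. Of the 2289 long genes, 666 had no prey other than telomeric and satellite-like ones, 590 had 1, and 994 had such prey in at least 2 libraries. Of distinct prey, 24.3% lay within 1 kb of a member of another library, 8.94% without telomeric and satellite-like prey, and 4.82% among strict prey. The 8.94% still includes prey at the Cdk5rap2 and 2210408I21Rik places that the satellite-like rule did not take in. Across the 2289 genes the number of distinct prey rose with eligible length (Spearman's rho 0.53, Pearson's r 0.46, and 0.49 and 0.67 for strict prey). These are correlations across genes, which share libraries and are not independent replicates, so no p is given. Strict prey were most frequent, after Gm20388, in Cntnap2 (20 in 9 libraries), a neurexin-family adhesion gene, and in Vps13d (17 in 15), Zfhx3 (17 in 13), a transcription factor, and Pcdh15 (17 in 10), a protocadherin. In Cntnap2, Zfhx3 and Pcdh15 no 500-bp window held more than 1. These genes were picked after their values were seen, except Cntnap2 and Pcdh15, which the count rule names.

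Vps13d and Chl1 differed from that pattern, as their prey came to the same place without being telomeric or satellite-like by the definitions used. Those definitions do not take in every repeat. In Vps13d, a lipid transfer protein, 18 junctions from 15 libraries lay at 2 adjacent bases in an annotated exon, all on the minus strand and 17 at the same base, with no overlap and with the bait ending 13 or 14 bp short of the break. These were 15 of the 16 libraries in sequencing runs 4 to 6 and 0 of the 16 in runs 1 to 3, so the place followed the run, whose part was not tested. In Chl1, a neural cell adhesion gene, 13 junctions from 10 libraries lay at 13 positions over 137 bp of an intron, 7 on the plus strand and 6 on the minus strand, with every plus-strand junction at lower coordinates than any minus-strand junction. The Chl1 stretch is itself repetitive, as its opening run recurs nearly unchanged further on. Neither definition takes this repeat in, so 12 of the 13 distinct prey in Chl1 count as strict although they lie on a repeat. Such reads could come from another copy, so the Chl1 position too is only where they were aligned. Likeness of the stretch to a known repeat was not tested. Capitals mark the bases at which junctions lay.
Vps13d, chr4:145176906-145176935: ccaggacttggcttctctacATaaaagagt
Chl1, chr6:103649095-103649294: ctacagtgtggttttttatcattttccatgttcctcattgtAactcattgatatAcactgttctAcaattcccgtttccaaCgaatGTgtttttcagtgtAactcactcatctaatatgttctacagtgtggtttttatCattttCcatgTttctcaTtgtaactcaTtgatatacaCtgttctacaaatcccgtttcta

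**Figure D5:**
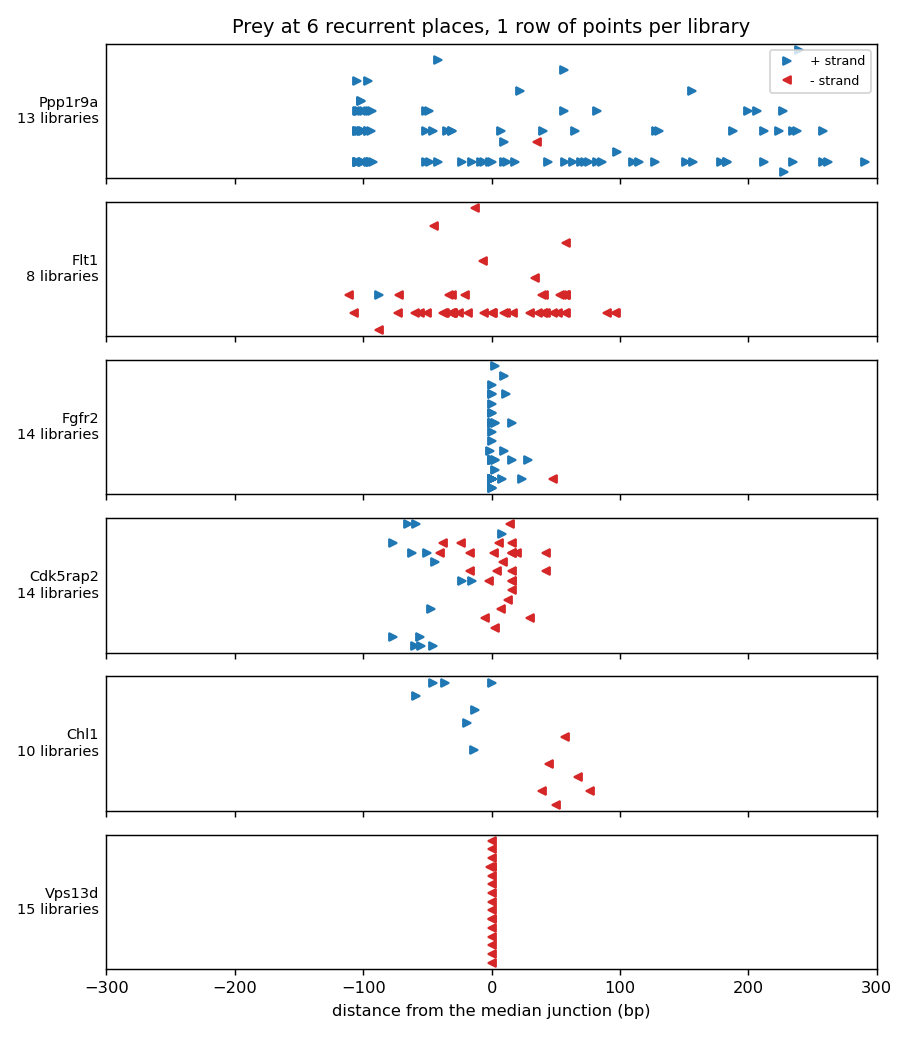
Junctions at 6 recurrent places (x axis, distance in bp from the median junction), 1 row of points per library, pointing right for the plus and left for the minus strand. Ppp1r9a (3 junctions at 308 and 322 bp lie beyond the axis) and Flt1 are spread along their arrays mostly on 1 strand, Fgfr2 is narrow, Cdk5rap2 and Chl1 use both strands and Vps13d lies at 2 adjacent bases.

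Gene groups were compared by counts. Of 17 listed fragile-site genes, 15 spanned 100 kb or more and all 15 had prey, against 71.2% of all long genes, with 142 distinct in all, or 8.14 per eligible Mb against 10.8 over all long genes (strict prey 6.02 against 7.27). Their members included Cntnap2 (21), the cadherin-binding gene Ctnna3 (14) and Fhit (12). All 18 neural adhesion and synapse genes had prey, 125 distinct, at 6.00 per Mb (strict 5.09), among them Magi2 and Dlg2 (11 each) and Cdh13 (9). The 15 fragile-site genes held 17.4 eligible Mb and the 18 neural genes 20.8, while the median long gene spans 169 kb. As prey number rose with eligible length, their shares of genes with prey are not comparable with the 71.2%. Of 18 fibroblast matrix, adhesion and cytoskeleton genes, 17 qualified and 15 had prey, 112 distinct at 22.4 per Mb (strict 10.6). Of these 112, 63 were in Lpp, 49 of them telomeric, and Palld had 8, Col4a2 5 and Vcl 4. The 17 fibroblast genes held 4.99 eligible Mb, so they were shorter than those of the other lists. Pooled density was 1.13-fold that of the eligible genome in genes of 100 to 200 kb and 0.817-fold above 1000 kb. The list densities were not matched for span, so their differences from all long genes are not specific to the lists.

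Orientation did not differ from an even split in the DMSO libraries. The share of prey on the strand of the gene was 52.3% ± 3.75 (SD, n = 6), 2.32 percentage points above an even split (exact sign-flip p = 0.25, adjusted p = 0.5 over 2 shares), and the share on the plus strand of the chromosome was 49.9% ± 7.21 (p = 1, adjusted p = 1). Over all libraries 52.0% were sense (95% Wilson interval 50.7% to 53.2%) and 51.7% of strict prey were (50.1% to 53.3%). Those pooled intervals treat junctions as independent, although members share loci and libraries. Telomeric prey were 60.7% on the plus strand.

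Position along the gene was compared with the bases on offer. By equal parts in the direction of transcription, 33.8% of members lay in the first, 35.0% in the middle and 31.1% in the last part, against 32.9%, 34.1% and 33.0% of eligible bases. In the DMSO libraries the density of the first over the last part gave 0.01 ± 0.25 as mean log2 ratio (SD, n = 6, exact p = 0.844). For strict prey, 20 to 89 in each of these libraries, it turned to -0.51 (exact sign-flip p = 0.0313, unadjusted). Over all libraries strict prey stayed close to the base shares, with 32.6% in the first, 33.0% in the middle and 34.4% in the last part. Exonic prey were 2.88% of members, against 2.68% of eligible bases. Within 50 bp of a sequence 1 mismatch away from the AsiSI motif lay 12 members, 0.204%, against 0.240% of eligible long-gene bases.

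Junction structure in long genes was set against that in shorter genes. Of direct joins into long genes in the DMSO libraries, 40.5% ± 16.5 (SD, n = 6) had an overlap of 6 or more nt, 42.0% ± 9.72 one of 1 to 5 nt and 17.5% ± 10.5 were blunt. Insertions were found in 26.3% ± 9.81 of members. None of the 4 classes differed from shorter genes beyond the spread (differences of -5.14, 3.10, 2.04 and 7.01 percentage points, adjusted p = 0.688 for each by exact sign-flip tests). DMSO libraries ranged from 21.9% to 70.6% for long overlaps, so the spread behind that difference is wide. In the Cas9 DMSO libraries long overlaps were 11.8% ± 7.42 (SD, n = 3). AsiSI-bait controls of other experiments were low too, with means of 8.15% (wiskostatin control, n = 2) and 9.96% (empty vector, n = 2). The NU7441 controls ran from 8.90% to 20.8% (n = 3). The CK-666 libraries, which share their sequencing runs with the DMSO libraries, had 43.6% ± 25.3 (SD, n = 6). The DMSO value is therefore not general to the AsiSI bait, and the part of the experiment in it was not tested.

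None of the treatments changed the share of distal prey inside long genes beyond the spread between pairs. With CK-666 the share was 23.9%, 16.7%, 21.7%, 26.9%, 28.3% and 22.6% in replicates 1 to 6, against 25.2%, 30.3%, 20.4%, 22.9%, 30.3% and 19.0% with DMSO. In 3 of 6 pairs CK-666 was the higher (-0.06 ± 0.38 as mean log2 ratio, exact sign-flip p = 0.844, adjusted p = 1 over 3 treatments). Replicate 2 of CK-666, with 5 members, decided the sign, and without it the mean was 0.08. By sequencing run the mean was -0.43 for replicates 1 and 2 and 0.12 for replicates 3 to 6.

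With the Cas9 bait, CK-666 gave 24.3%, 24.2% and 24.4% and DMSO 315 of 1313, 23.5% and 25.5% (mean log2 ratio -0.00115 ± 0.06, exact p = 1; 3 pairs cannot give a p below 0.25). The effect of CK-666 was not shown to differ between the baits (exact permutation p = 0.857 for a difference of -0.06). NU7441 gave 63 of 262, 22.7% and 24.7% and its controls 23.7%, 23.7% and 24.7% (mean log2 ratio -0.01 ± 0.05, exact p = 1). Wiskostatin gave 25.7% and 26.7% against 24.6% and 27.1%, and actin R62D-NLS 22.4% and 29.4% against 25.5% and 23.9% with empty vector. No test was run on these pairs, 2 for each treatment.

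The bait types differed in how many junctions were members, while no difference was detected in the long-gene share of distal prey. In the 3 Cas9 DMSO libraries 24.3% ± 1.07 of distal prey lay in long genes, against 24.7% ± 4.85 in the 6 DMSO libraries (exact permutation p = 1). Over all libraries shorter genes held 16.4% of distal prey with the AsiSI bait and 12.4% with Cas9, a difference that was not tested. Among Cas9 libraries they held 10.1% in DMSO replicate 2 and 8.80% in CK-666 replicate 2, the libraries rich in telomeric prey, and 13.6% to 16.2% in the rest. Of all junctions more than 10 kb from the bait, long-gene prey were 14.7% ± 1.95 with Cas9 and 2.65% ± 1.08 with AsiSI, a 5.82-fold difference (mean log2 difference 2.54, exact permutation p = 0.0119, the smallest this design can give, adjusted p = 0.0238). The denominator of the latter share includes the AsiSI-cut prey, which the paper reports as the large majority of prey with the AsiSI bait. A higher share with Cas9 was therefore to be foreseen from the design. The difference and its p do not bear on long genes in particular. Bait type and cell background cannot be told apart in any library, and in the tested comparison the sequencing run of the Cas9 libraries changed with them. Within that run the 1 AsiSI-bait control library, with 3.23%, gave a log2 difference of 2.17, with no test.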

How the data were processed

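HTGTS junction tables of 32 MEF libraries were used. Per the labels and methods, the authors sequenced on MiSeq, mapped reads to mm10 and ran the HTGTS pipeline, whose version is not given in the sources used here. Deposited values are positions and strands, 1 line per junction, with no normalization, count table or pooling. The 12 Hi-C samples were not analysed here.

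Members and gene lists were chosen with earlier results of these data known. Long genes, starts and exons came from GENCODE M21, sequence from the mm10 RefSeq assembly, and the 1109 motifs from the paper's list. Log2 ratios used a pseudocount of 0.5. Densities were compared by exact two-sided sign-flip tests over libraries or pairs and bait types by exact permutation, with Benjamini-Hochberg adjustment in families. Libraries count as separate samples as labelled; if they share cultures, p-values measure that narrower spread. The tests were checked on simulated data. Named genes were the 20 with most distinct prey, the 5 densest with 10 or more, the 5 with most in Cas9 libraries, and up to 4 of each list. Some items that this rule names, and some sequences, are not reported here. Satellite-like means 1 shared run of 15 bases, telomeric at least 3 units.

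Treated and control libraries were paired by number, as each pair shares a sequencing run. Log2 shares of 10-Mb windows, centred within groups, correlated by pair at 0.458 to 0.773 for Cas9, 0.359 to 0.741 for NU7441 and -0.07 to 0.61 for CK-666. Python 3.11.15, numpy 2.4.6, pandas 2.3.3 and scipy 1.17.1 were used.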

Additional observations from a re-analysis of the deposited data

Results flagged for a closer look

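In groups of 6, a library was set apart where its gap to the next exceeded Dixon's 95% limit, over 24 checks, and chance alone sets apart about 1 group in 20. The share of telomeric prey was 4.70% in DMSO replicate 3, against 0% to 1.22% in the other 5, and 1.72% in CK-666 replicate 6, against 0% to 0.505%. The density of prey in shorter genes over the eligible genome was 1.89-fold in CK-666 replicate 6, against 1.18 to 1.43 in the others.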

How the results depend on the processing

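Values are mean log2 ratios, or percentage points for strand, sense and overlap shares. Without repeats means without telomeric and satellite-like prey. Repeat windows are 10-kb windows with 20 or more prey away from motifs in the Cas9 libraries. Leaving these windows out removes Cas9 prey by construction, so that setting is no independent check on the bait type share. Of 261 values recomputed for comparisons, 192 kept direction and side of the threshold, 46 changed sign, 17 lost and 5 gained a call and 1 moved. Sign-flip tests over 5 or fewer libraries or pairs cannot pass the threshold. For those settings a lost or absent call was fixed in advance, so the tally is no measure of robustness. Of 168 counts of prey in named genes, 53 moved, mostly where repeat prey were left out. The density of long over shorter genes passed the exact test unadjusted with starts within 1 kb (-1.18), motifs within 100 kb (-0.55), genes from 200 kb (-0.58) and strict prey (-0.51). Genes over 500 kb against 100 to 200 kb missed it at -0.54 (starts), -0.64 (motifs), -0.60 (strict) and -0.70 (without genes spanning 5 others). Long genes against the eligible genome turned to -0.26 (starts), -0.14 (200 kb) and -0.0261 (without Y). The sense share was 5.73 at 200 kb (exact p = 0.0313) and -0.688 for strict prey. The plus strand share was 0.782 (50 kb), 1.66 (200 kb), 0.278 (without repeats) and 3.00 (strict). The first over the last part was -0.0100 (positions counted 1 time), -0.0302 (50 kb), -0.27 (outside soft-masked repeats), -0.11 (without repeats) and -0.51 (strict). Long overlaps were 9.21 (starts). The cause was not tested.

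CK-666 gave 0.0201 (200 kb), 0.00232 (strict) and 0.20 (share of all junctions away from the bait). Cas9 CK-666 gave 0.0414 (starts), 0.0283 (motifs), 0.0198 (50 kb) and 0.0494 (all junctions). NU7441 gave 0.00170 (positions 1 time), 0.00377 (without repeat windows) and 0.0143 (all junctions), and wiskostatin -0.11 (all junctions). The bait type share gave 0.0161 (positions 1 time), 0.00596 (without repeat windows), 0.16 (starts), 0.12 (200 kb), 0.0669 (without repeats) and 0.11 (strict). In the Cas9 run alone, the bait type share of all junctions was 2.17, untested.

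Leaving out 1 replicate gave -0.0493 to 0.0860 for long genes against the eligible genome, -0.75 to -0.50 for the longest genes (5 libraries cannot reach the threshold), -2.33 to 1.62 for the plus strand, -0.0712 to 0.0804 for the first part, -9.09 to 0.405 for long overlaps, -0.127 to 0.0784 for CK-666, -0.0230 to 0.0317 for Cas9 CK-666, -0.0273 to 0.0168 for NU7441, -0.19 to 0.28 for actin R62D-NLS, -0.02 to 0.07 for wiskostatin, -0.0754 to 0.0593 for the bait type share and 21.7 to 23.5 for reads past the break. Without the replicate block, CK-666 stayed at -0.06 (exact permutation p = 0.662), and the block changed no other call. Crossing the wiskostatin pairs, whose windows correlated at -0.16, left 0.02. CK-666 replicate 2 held 5 members. Alternatives on prey kind, spanning genes and chromosome Y were chosen after seeing the data.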
